A study of Rattus norvegicus with 24 samples.

Results

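The report describes short runs of CpG island probes in rat mammary carcinomas and normal mammary glands. A run is a string of neighbouring probes on chromosomes 1 to 20 that lie at most 1000 bp apart in the rn4 assembly. A short run holds 1 to 3 probes. A run is a unit of the probe layout of the array, and was not matched to an annotated island. Of the 93024 non-control probes of the array, 89403 lay on these chromosomes, and 6120 of them belonged to the 2533 short runs among 13856 runs. There were 347 runs of 1 probe, 785 runs of 2 and 1401 runs of 3.

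DNA of 24 female Sprague-Dawley rat tissues had been hybridized to 1 array each. The groups were 3 normal mammary glands of non-irradiated animals, 7 carcinomas of rats given 2 Gy of whole-body gamma rays at 3 weeks of age (IR-3W), 7 carcinomas of rats given 2 Gy at 7 weeks of age (IR-7W), and 7 spontaneous carcinomas of non-irradiated rats. The treatment text of every sample gave a high corn oil diet after 9 weeks of age, so this diet was shared by all groups. IR-3W tumors 6 and 7 came from 1 rat, as did IR-7W tumors 1 and 2. DNA enriched with a protein that binds methylated CpGs was labelled with Cy5, and total DNA of the same sample with Cy3. The arrays hold no expression values and the scanner files give probes a position and no gene name, so the tissues could not be checked against marker genes and regions are given by probe name and position.

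CpG islands are stretches of DNA rich in CpG dinucleotides that often overlap gene promoters, and most of them are unmethylated in normal tissue. In carcinomas some islands gain methylation, which commonly accompanies silencing of the gene they belong to, while methylated DNA elsewhere is often partly lost. A methyl-CpG binding protein captures a fragment more strongly the more methylated CpGs it carries. The ratio of captured over total DNA therefore depends on both methylation and CpG content, and is no percentage of methylated molecules.

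A short run spanned a median of 329 bp from its first to its last base, with quartiles of 147 and 489 bp. The nearest probe of another run lay a median of 25543 bp away (quartiles 7595 and 68427 bp). The runs were not all isolated, since 267 of the 2533 (10.5%) lay within 2000 bp of another run, while 450 (17.8%) lay over 100000 bp from any other. The distance was much like that of runs of 10 or more probes, whose median was 28100 bp. Within short runs, 442 of the 3587 neighbouring probe pairs (12.3%) overlapped or touched, so those probes share sequence and are not separate measurements. Short-run probes were 45 to 60 bases long, and 62.2% of them had 45 bases, against 63.0% of the probes in runs of 10 or more.

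The measure was the log2 ratio of the Cy5 over the Cy3 signal, with the median of all non-control probes of an array set to 0. On every array these values formed a large low mode and a smaller high mode, and a probe above the midpoint of both fitted modes was counted as lying on the high, strongly captured side. The midpoint ranged from 0.97 on spontaneous tumor 5 to 2.30 on IR-3W tumor 1. Per array, 73.0% to 95.4% of the short-run probes had a Cy5 signal well above background, and 88.0% to 98.6% had such a Cy3 signal. Correlations between arrays over the short-run probes ranged from 0.75 to 0.95. The number of arrays, and of the 3 glands in particular, limits the precision. An SD over arrays describes the same probes read again on each array. It does not measure the uncertainty that comes from few probes in a set.

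Short runs were captured more often than long runs. In the normal glands 16.9% ± 1.94 (SD, n = 3) of the short-run probes lay on the high side, against 10.8% ± 1.29 of the probes in runs of 10 or more. In the 21 tumors the corresponding shares were 22.0% ± 2.88 and 17.0% ± 3.24. The difference between short and long runs was positive on 24 of 24 arrays, from 3.15 to 7.06 percentage points with a mean of 5.16 ± 1.05 (SD, n = 24). Against runs of 4 to 9 probes it was 2.20 ± 0.74 percentage points. The medians were also apart, and the median log2 ratio of the short-run probes exceeded that of the long runs by 0.13 ± 0.04 (SD, n = 24). The excess over long runs depended on the joining distance. With runs joined only at gaps of at most 500 bp it was 2.00 percentage points, and the difference in medians was 0.07. With normexp background correction the difference in medians was 0.042.

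The share was largest in runs of a single probe. These lay on the high side in 24.8% ± 1.89 (SD, n = 3) of cases in the glands and in 30.7% ± 3.34 (SD, n = 21) in the tumors. Runs of 3 probes, the largest that count as short, had shares of 16.4% ± 2.02 and 21.6% ± 2.83. Runs of 4, just outside the limit, had 18.1% ± 1.60 and 22.6% ± 2.59, so the share did not fall steadily with run size. Single probes exceeded runs of 3 on 24 of 24 arrays, by 6.87 to 13.0 percentage points. Single probes also had weaker signals, with Cy5 well above background in 80.6% ± 6.62 of them in the tumors against 84.7% ± 6.10 of all short-run probes, and the part of this in the result was not tested.

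**Figure D1:**
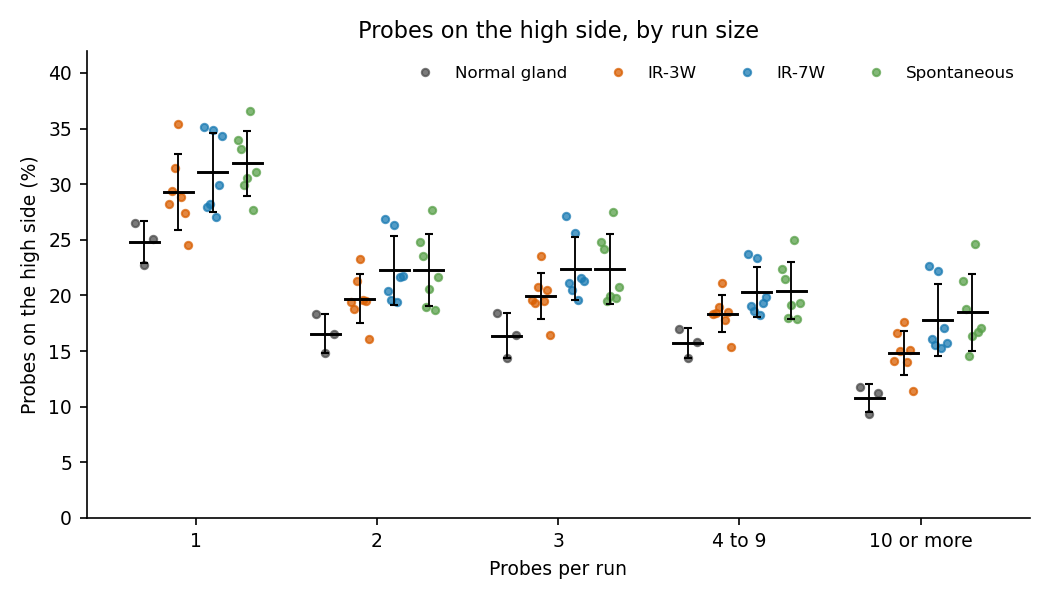
Percent of probes on the high side (y axis) by the number of probes in a run (x axis), with 1 point per array, horizontal bars for group means and error bars for the SD. Single probes had the highest shares in each group, with means of 24.8% in the 3 glands and 30.7% over the 21 tumors.

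Single probes differed by their distance from other runs. The 62 single probes that lay over 100000 bp from any other run were on the high side in 48.4% of cases in each of the 3 glands and in 54.6% ± 4.63 (SD, n = 21) in the tumors. The 65 single probes within 2000 bp of another run had shares of 12.8% ± 0.89 and 17.3% ± 4.64. The classes between them had gland shares of 23.7% ± 2.94 (52 probes) and 21.03% ± 3.00 (168 probes). Probes in runs of 10 or more had gland shares of 12.5% ± 2.09 within 2000 bp, 17.6% ± 2.00 over 2000 and up to 10000 bp, 9.23% ± 0.94 over 10000 and up to 100000 bp and 6.13% ± 1.08 beyond. Over all short runs the share in the glands was 18.9% ± 1.80 at over 100000 bp and 14.7% ± 1.92 within 2000 bp, with 19.5% ± 2.17 over 2000 and up to 10000 bp and 15.7% ± 1.96 over 10000 and up to 100000 bp, so it did not rise steadily with distance.

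**Figure D2:**
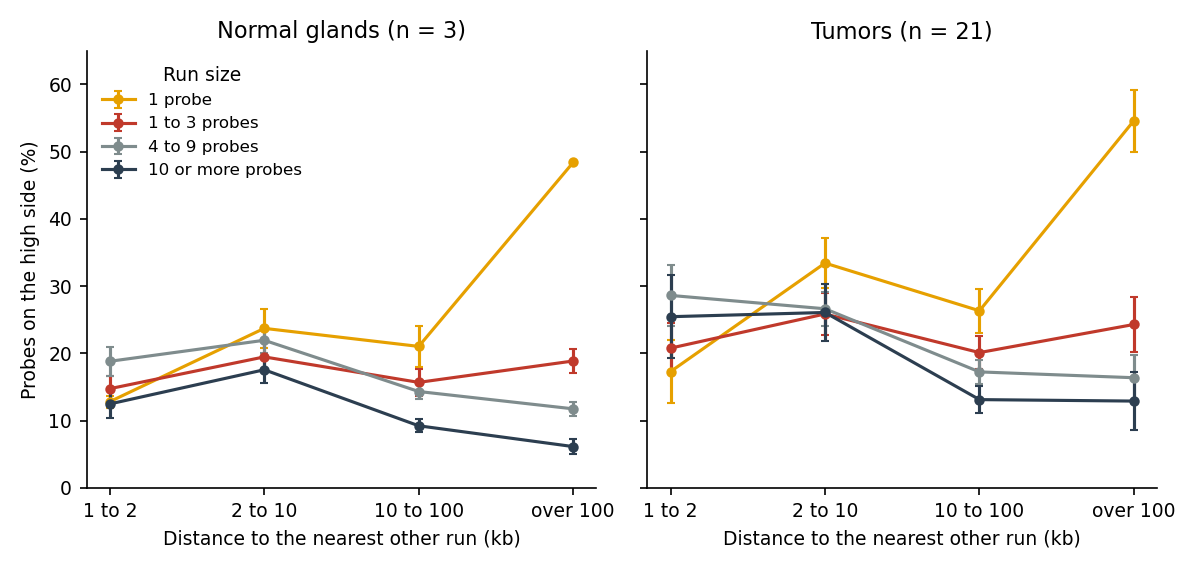
Percent of probes on the high side (y axis) by the distance from a run to the nearest other run (x axis, kb), in normal glands (left) and tumors (right), as mean and SD over arrays. Single probes over 100 kb from any other run stood at 48.4% in the glands, while runs of 10 or more probes stood at 6.13%.

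The excess over long runs was also seen among probes of equal length. Among probes of 45 bases the gland share was 16.7% ± 1.57 in short runs and 12.8% ± 1.38 in runs of 10 or more (SD, n = 3). Among probes of 60 bases it was 17.2% ± 5.63 and 3.49% ± 1.03. The share of short-run probes on the high side was therefore about level over the lengths in the glands, whereas that of long runs was lower for longer probes. CpG content and melting temperature were not analysed here.

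Short-run probes on the high side were unevenly placed. Over all arrays their share ran from 14.4% on chromosome 4 to 38.8% on chromosome 18, where all autosomal probes together had 23.9%. There were 41 windows of 1 Mb with 15 or more short-run probes. Of these, 6 had over 50% of these probes on the high side and 4 had under 5%. The highest were a pair of adjoining windows on chromosome 18, singled out after their values were seen. The 33 short-run probes there belonged to 16 runs within chr18:29663289-30676249 (rn4). They lay on the high side in 93.8% of readings, and 27 of the 33 did so on all 24 arrays. Their mean log2 ratio was 2.94 in the glands and 3.22 in the tumors, against 0.64 and 0.72 for the other 145 short-run probes of the chromosome. In the same windows the probes of longer runs lay on the high side in 40.03% and 53.0% of readings. At the other end, 22 short-run probes within chr1:186000001-187000000 had 0.57% on the high side, where the 167 other probes had 18.1%.

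**Figure D3:**
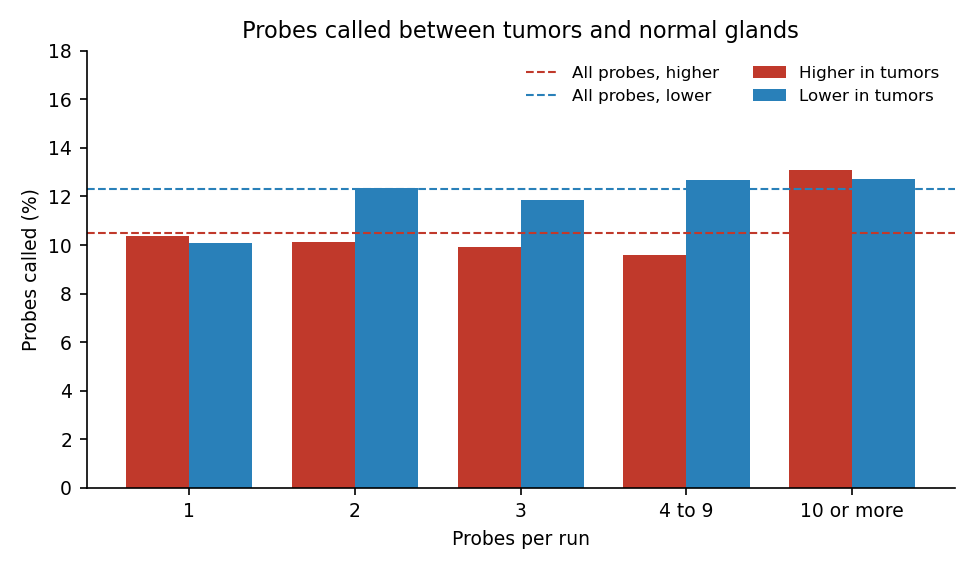
Percent of probes called higher (red) or lower (blue) in tumors than in normal glands at an adjusted p under 0.05 (y axis), by the number of probes in a run (x axis), with dashed lines for all 93024 probes. Short runs lay near the dashed lines at 10.5% and 12.3%, and runs of 10 or more had the highest share called higher, 13.1%.

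Tumors were compared with normal glands by limma over all 93024 probes. Of the 6120 short-run probes, 1340 (21.9%) were called at an adjusted p under 0.05, against 22.8% of all probes. In tumors 612 were higher, where 10.5% of all probes were, and 728 (11.9%) were lower, against 12.3% of all probes. These shares were near the background, so short runs did not stand apart in how often they were called. Among single probes 36 were higher and 35 lower, and among runs of 10 or more 13.1% were higher and 12.7% lower. The median difference between tumors and glands over the short-run probes was 0.09 on the log2 scale, against 0.06 over all autosomal probes, and turned to -0.016 with normexp background correction and -0.0016 after quantile normalization. In a test of the mean of each run, 560 of the 2533 short runs (22.1%) were called, against 23.7% of all runs.

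The calls depended on the glands and on how the arrays had been run. Without normal gland 2 there were 596 calls, against 10.4% of all probes, and without normal gland 3 there were 618, against 10.5%. All 3 glands were scanned on 1 day, together with a single tumor, spontaneous tumor 3. With the scan day as a block 56 short-run probes were called, against 0.740% of all probes, and with the slide as a block 1 was called, against 0.0183%, so tissue and scan day can be told apart only through that tumor. Higher probes made up 45.7% of the calls on log2 ratios, 30.1% without gland 3, 36.6% without gland 2 and 96.8% of 1672 calls on the LogOdds. The LogOdds was rebuilt from the fitted modes of each array. It was the log ratio of the lower tail of the high mode over the upper tail of the low mode, at the probe's value. On it 27.6% of all probes were called. The direction over the whole set therefore differs between the measures.

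Most of the called probes lay on the low side in all 3 glands, and the side of the called probes in the tumors was not counted. The 612 higher probes had a median log2 ratio of -0.35 in the glands and 0.53 in the tumors, and 569 of them lay on the low side in all 3 glands. The 728 lower probes had medians of 0.41 and -0.36, and 685 of them lay on the low side in all 3 glands. Strongly captured probes were seldom called, since 7 of the higher and 4 of the lower probes lay on the high side in all glands. Of the 4780 short-run probes not called, 75.9% were low and 17.5% high in all glands. Over all autosomal probes, called or not, 83.3% were low and 11.9% high. These shares were not worked out for the called probes of other runs, so no trait of short runs alone is shown. The differences ranged from 0.35 to 2.42 among the higher probes and from -1.63 to -0.32 among the lower. On 39 of the higher probes the Cy5 signal was not well above background in any gland, so the gland value there is only an upper limit. For 12 of the higher probes this held in all tumors.

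With the midpoint of each array as the divide, more probes turned high than low between gland and tumor, from unequal starting sets. Of the 6120 short-run probes, 4880 (79.7%) lay on the low side in all 3 glands, 847 (13.8%) on the high side in all, and 393 (6.42%) were split. Of the 847 high probes, 731 (86.3%, against 86.1% over all autosomal probes) were also high in all 21 tumors, and 19 were low in 11 or more. Of the 4880 low probes, 1168 (23.9%) were high in at least 1 tumor, 168 (3.44%) in 11 or more, and 8 in all 21. Over all autosomal probes the shares of low probes that were high in at least 1 tumor and in 11 or more were 22.4% and 3.61%. They were 20.1% and 3.06% in runs of 4 to 9, and 26.0% and 4.64% in runs of 10 or more.

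The number that changed varied widely among tumors. Among IR-3W tumors the probes that were low in the glands and high in the tumor numbered 81 in tumor 7, 195 at the median and 319 in tumor 4. Among IR-7W tumors they ranged from 185 to 556 with a median of 264, and among spontaneous tumors from 211 to 603 with a median of 275. The groups overlapped. Probes that were high in the glands and low in a tumor were fewer, from 9 to 54 in IR-3W, 11 to 44 in IR-7W and 16 to 31 in spontaneous tumors. As mean shares of the probes that could change, 3.94% turned high and 3.09% turned low in IR-3W, 6.83% and 2.90% in IR-7W, and 6.85% and 2.99% in spontaneous tumors. In IR-3W tumors 2 and 7 the share that turned low was the larger, at 6.38% against 4.59% and 4.37% against 1.66%. With 1 common dividing value of 1.5 the high share was 16.7% ± 2.79 in the glands and 20.7% ± 2.46 in the tumors. With that value after quantile normalization, which gives all arrays 1 distribution and so makes their shares nearly equal by construction, it was 20.8% ± 0.61 and 20.5% ± 0.66. The order of the tumor groups also depended on the divide. With each array's midpoint IR-3W averaged 20.4% ± 2.18, IR-7W 22.9% ± 2.89 and spontaneous tumors 22.9% ± 3.13 (SD, n = 7 each). With the value of 1.5 these means were 20.9% ± 2.72, 21.3% ± 1.14 and 19.9% ± 3.20, so IR-3W was not the lowest. The midpoint was 0.97 on spontaneous tumor 5 and 1.10 on IR-7W tumor 1, which gained most, against 1.32 to 1.63 in the glands. Gains and losses were not worked out with that value of 1.5.

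Of the 8 probes that were low in all glands and high in all tumors, 4 lay on chromosome 5, among them A_45_P04760313, a run of a single probe at chr5:129322919-129322963. Its glands lay between 0.91 and 1.17 and its tumors between 1.68 and 3.75, with a difference of 1.57 ± 0.29 (SE, limma adjusted p = 0.000549). The 8 were 0.164% of the low probes, against 0.0966% of all autosomal probes that were low in all glands. Of the 847 high probes 3 (0.354%) were low in all tumors, against 0.440% over all autosomal probes. They were A_45_P03422289 at chr4:26908096-26908140, A_45_P01378117 at chr2:29451245-29451289 and A_45_P05970612 at chr7:58128494-58128538, with differences of -1.29, -1.63 and -1.08. These 4 probes were picked out by their change of side, after their values were seen.

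All 21 tumors lay above all 3 glands for 158 short-run probes (2.58%), against 2.91% of all probes. All tumors lay below all glands for 414 (6.76%), against 6.95% of all probes. From those that were also called, the 6 with the greatest difference each way are described next, at most 1 per run, followed by runs of 3 called as a whole. The adjusted p-values given for these 22 probes are from the fit without a block. None of the 22 was called with the slide as a block (adjusted p = 0.136 to 0.593) or with the scan day as a block (adjusted p = 0.0594 to 0.695). The differences themselves were about as large for some, as at A_45_P00690142 with -1.71 by slide and -1.56 by day against -1.63 without a block, and smaller for others, as at A_45_P04917350 with 1.37 and 0.85 against 1.81.

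Among the probes higher in tumors, A_45_P04659010 at chr5:108910693-108910744 had the smallest adjusted p. The glands were at 0.44, 0.71 and 0.93. The tumors ranged from 1.84 in IR-7W tumor 6 to 4.26 in IR-3W tumor 1, with a median of 2.65. The tumor groups overlapped, and their means were 2.79 ± 0.77 for IR-3W, 2.76 ± 0.58 for IR-7W and 2.82 ± 0.51 for spontaneous tumors (SD, n = 7 each). The difference from the glands was 2.10 ± 0.34 (SE, limma adjusted p = 0.000240). The next probe of its run, A_45_P04659011, was higher by 2.01 (adjusted p = 0.000746), while the third, A_45_P04659013, differed by 0.81 and was not called (adjusted p = 0.163).

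The other 5 had differences of 2.10 to 2.42. The largest was that of A_45_P04898301 at chr5:156683663-156683709, with glands at -2.39, -1.39 and -0.87 and tumors from -0.83 to 2.97, but its Cy5 signal was well above background on only 12 of 21 tumors and 2 of 3 glands. It was not called without gland 2 (difference 2.00, adjusted p = 0.0672), and with normexp background correction its difference was 0.59 (adjusted p = 0.105). Its run mate A_45_P04898304 differed by 1.39 and was not called (adjusted p = 0.0859). A_45_P05982349 at chr7:60205508-60205558 had glands at -1.46, -0.94 and -0.42 and tumors from -0.37 to 2.93, so the groups almost touched, and its Cy5 signal was well above background on 2 of 3 glands and on 20 of 21 tumors. Its run mates A_45_P05982351 and A_45_P20811013 differed by 0.85 and 0.30 and were not called (adjusted p = 0.359 and 0.685). A_45_P11875955 at chr19:20438373-20438421 had glands at -1.21, 0.19 and 0.24 and tumors from 0.86 to 3.29, and both other probes of its run were also higher, by 1.14 and 1.45. Its Cy3 signal was well above background on 16 of 21 tumors and its Cy5 signal on 2 of 3 glands. With normexp its difference was 0.69 and was not called (adjusted p = 0.0510).

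In 28 of the 1401 runs of 3 probes (2.00%) all 3 were called higher in tumors, against 2.65% of all sets of 3 neighbouring probes within a run, which overlap in longer runs. The run with the largest mean difference lay at chr5:146568542-146568977. Its probes A_45_P04844689, A_45_P04844690 and A_45_P04844692 were higher by 2.00 ± 0.39, 2.19 ± 0.42 and 1.80 ± 0.39 (SE, limma adjusted p = 0.000782, 0.000756 and 0.00182). For the middle probe the glands were at -0.26, 0.22 and 0.53 and the tumors lay between 1.37 and 3.81 with a median of 2.14. The groups did not overlap at any of the 3 probes. The second run, at chr5:160100046-160100532, was higher by 1.58 to 2.15, with glands already at 1.19 ± 0.55 and tumors at 2.76 ± 0.85 (SD, n = 3 and 21) for its first probe. Glands and tumors overlapped at its first and second probes, and its first and second probes were not called when gland 2 or gland 3 was left out, nor was the second without gland 1 (adjusted p = 0.0583 to 0.176). With normexp the differences at A_45_P04917349 and A_45_P04917350 were 0.80 and 1.05 and were not called (adjusted p = 0.195 and 0.132).

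**Figure D4:**
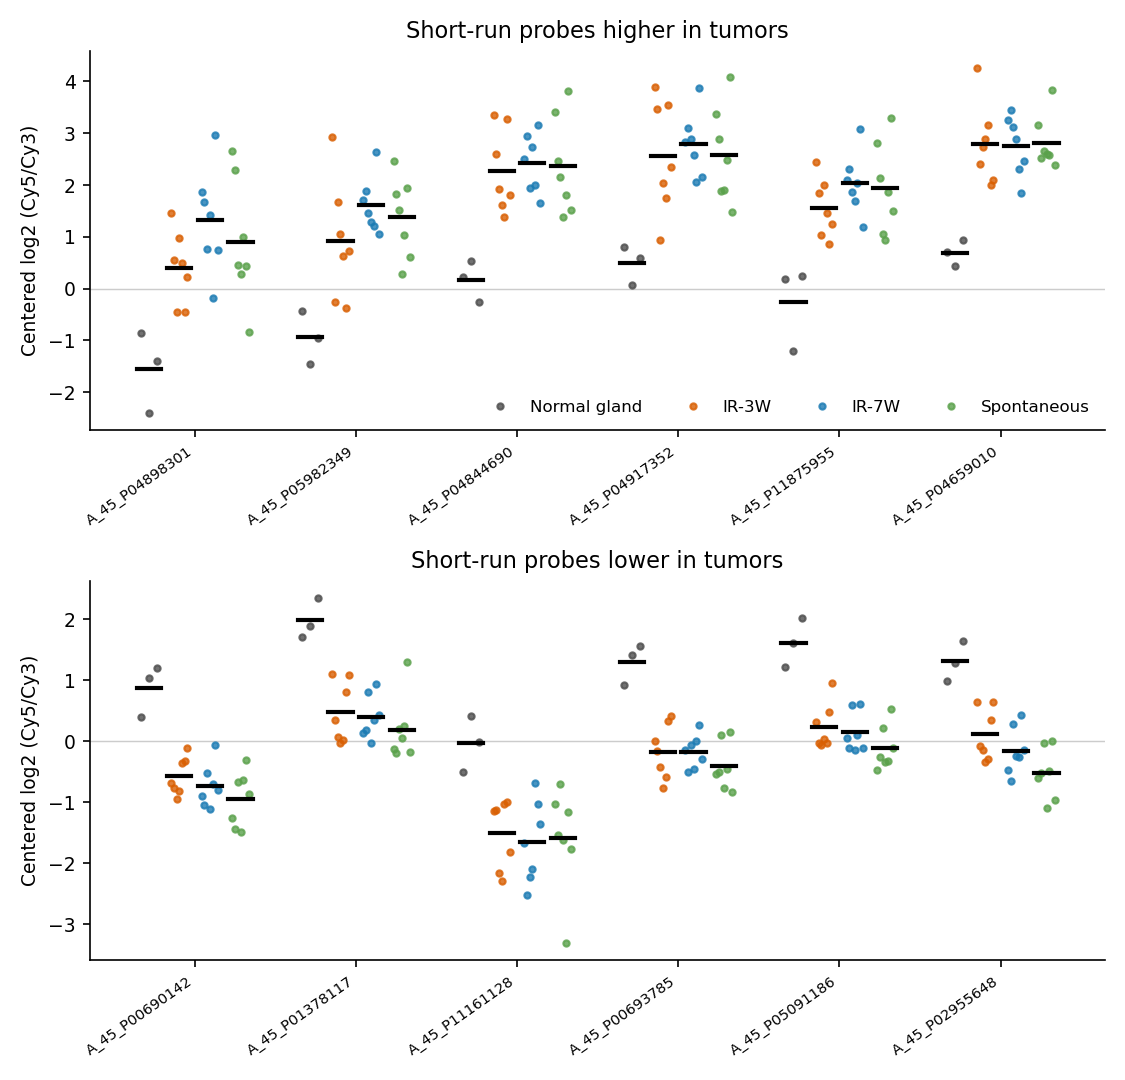
Centered log2 ratios (y axis) of the 6 higher and 6 lower short-run probes named by size of difference (x axis), with 1 point per array and bars for group means. All 12 were chosen from probes without overlap between glands and tumors, and the tumor groups overlapped at each.

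Among the probes lower in tumors, A_45_P00690142 at chr1:154348816-154348860 had the largest difference. The glands were at 0.40, 1.03 and 1.21. The tumors ranged from -1.49 to -0.07 with a median of -0.76, so every tumor lay under 0 and every gland above it. The difference was -1.63 ± 0.24 (SE, limma adjusted p = 0.000154). One neighbour in its run, A_45_P15670108, had a difference of -1.09 (adjusted p = 0.00199), and A_45_P00690146 differed by -0.29 and was not called (adjusted p = 0.568).

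The other 5 had differences of -1.63 to -1.50. A_45_P01378117, named above for its change of side, had glands at 1.71, 1.89 and 2.35 and tumors from -0.20 to 1.30. A_45_P05091186 at chr6:22773593-22773637 had glands at 1.21, 1.62 and 2.02 and tumors from -0.46 to 0.95. A_45_P00693785 at chr1:155057693-155057737 fell from 1.30 ± 0.34 (SD, n = 3) in the glands to -0.25 ± 0.37 (SD, n = 21), while the others of its run, A_45_P00693783 and A_45_P00693782, differed by -0.50 and 0.60 and were not called (adjusted p = 0.104 and 0.238). A_45_P02955648 at chr3:105250062-105250106 had glands from 0.99 to 1.65 and tumors from -1.09 to 0.65. For A_45_P11161128 at chr17:59697103-59697152 the Cy5 signal was well above background on 3 of 21 tumors, so its tumor mean of -1.58 is mostly a reading near background. With normexp its difference was -0.089 (adjusted p = 0.482), and without gland 2 it was -1.33 (adjusted p = 0.0672).

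In 12 of the 1401 runs of 3 probes (0.857%) all 3 were called lower in tumors, against 2.91% of all sets of 3 neighbouring probes within a run. The run with the largest mean difference lay at chr15:46605655-46606089. A_45_P10128581, A_45_P10128583 and A_45_P10128585 differed by -1.11 ± 0.16, -1.38 ± 0.19 and -0.58 ± 0.15 (SE, limma adjusted p = 0.000146, 0.000129 and 0.00752). At the middle probe the glands were at 1.39, 1.79 and 1.86 and the tumors from -0.16 to 0.87, with no overlap. The second run, at chr7:9636790-9636921, differed by -1.23, -1.04 and -0.60. Its last pair of probes overlap in sequence. A_45_P20570274 was not called without gland 2 or gland 3 (adjusted p = 0.143 and 0.235), nor was the middle probe A_45_P05732718 without gland 3 (difference -0.76, adjusted p = 0.0907). On the LogOdds none of the 3 probes of this run was called (adjusted p = 0.141 to 0.671), nor was A_45_P10128585 (adjusted p = 0.348).

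Neighbouring probes of a short run had similar levels but less similar changes. The first and second probes of runs of 2 correlated at r = 0.82 in their mean log2 ratio over the tumors and at r = 0.45 in the difference of tumors minus glands (785 runs). For the first and second probes of runs of 3 these values were 0.85 and 0.53 (1401 runs). The similarity of the differences fell with distance, from r = 0.77 for the 442 pairs that overlapped or touched to 0.53 for gaps of up to 200 bp, 0.35 for gaps over 200 and up to 500 bp and 0.17 for gaps over 500 bp. The correlations are over probes on the same arrays, which share sample and capture. Among the 1401 runs of 3, 636 (45.4%) had at least 1 called probe, against 48.3% of all sets of 3 neighbouring probes within a run, and 50 (3.57%) had probes called in both directions, against 2.14%.

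Spread between tumors followed the level. The 733 short-run probes that were high on all arrays had a median SD over the tumors of 0.69, and the 3712 that were high on no array had 0.33. The remaining 1675 (27.4%), which were high on some arrays, had 0.60. For all short-run probes the median SD was 0.44, against 0.43 over all autosomal probes.

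The comparison of IR-7W with IR-3W set tumors of the later age at irradiation against those of the earlier. The study reports no estrogen receptor negative tumor in the IR-7W group, and gives this as the reason why age and receptor status could not be separated. They cannot be told apart here either. No short-run probe was called by limma at an adjusted p under 0.05, and 0 of all probes (0%) were called. The smallest adjusted p of a short-run probe was 0.109, and the methods' t-test, run here on log2 ratios and not on the study's LogOdds with its minimum difference, also called 0 after adjustment. At an unadjusted p under 0.05 there were 416, against 6.49% of all probes. At an unadjusted p under 0.005 there were 67 (1.09%), against 1.21% of all probes. Of these, 52 were higher in IR-7W and 15 lower, against 0.967% and 0.238% of all probes. The count was 103 without IR-7W tumor 7, where 1.55% of all probes passed, and 101 without IR-3W tumor 1, where 1.56% did, so the count over all probes was larger too. Without IR-7W tumor 7, 7 short-run probes were called after adjustment, against 0.0881% of all probes.

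The run at chr12:38157705-38158243 held the short-run probe with the smallest p among those lower in IR-7W, and its other probe had the smallest p among those higher in IR-3W than in spontaneous tumors. At A_45_P08822801 the IR-3W tumors were at 3.53, 3.42, 3.00, 3.04, 2.55, 3.55 and 0.79 in the order of tumors 1 to 7. The IR-7W tumors ranged from 0.48 to 1.39 with a median of 1.05, and the spontaneous tumors from -0.56 to 1.61 with a median of 0.69. Thus 6 of 7 IR-3W tumors lay above all others and tumor 7 lay among them. The normal glands were at 1.73, 2.68 and 3.38, within the range of the IR-3W tumors. IR-7W minus IR-3W was -1.77 ± 0.36 (SE, limma adjusted p = 0.151). Without IR-3W tumor 7 it was -2.12 (adjusted p = 0.00326), and with 1 tumor per rat, which also leaves out that tumor, it was -2.17 (adjusted p = 0.00829).

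At the other probe of this run, A_45_P08822797, the IR-3W tumors were at 3.76, 3.49, 3.29, 2.86, 3.16, 3.93 and 1.79, and the glands at 2.75, 2.99 and 3.74. The IR-7W tumors ranged from 0.50 to 2.55 and the spontaneous tumors from 0.96 to 2.09. Again tumor 7 alone of the IR-3W tumors lay among the others. IR-3W minus spontaneous was 1.68 ± 0.28 (SE, limma adjusted p = 0.148), and without IR-3W tumor 7 it was 1.92 (adjusted p = 0.0251). With the scan day as a block it was 2.09 (adjusted p = 0.0431). IR-7W and spontaneous tumors differed by 0.16 at this probe (adjusted p = 0.930). The comparisons share the IR-3W tumors and are not independent, and both probes belong to 1 run.

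A run at chr15:50932381-50932597 went the other way. At A_45_P10149100 the IR-7W tumors were at 2.16, 2.02, 1.96, 1.69, 1.49, 2.99 and 0.56 in the order of tumors 1 to 7. The IR-3W tumors ranged from -0.17 to 0.72 with a median of 0.15, the spontaneous tumors from 0.59 to 1.30, and the glands were at 0.18, 0.35 and 0.56. All IR-7W tumors but tumor 7 lay above all IR-3W and spontaneous tumors. IR-7W minus IR-3W was 1.63 ± 0.28 (SE, limma adjusted p = 0.109), and without IR-7W tumor 7 it was 1.84 (adjusted p = 0.0272). The difference also passed when scaled by array SD (adjusted p = 0.0450) and as LogOdds (adjusted p = 0.0433). Its neighbour A_45_P10149099 differed by 1.04 (adjusted p = 0.263).

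At A_45_P22949341, chr10:107510441-107510500, IR-7W tumors ranged from 0.58 to 2.74 with a median of 2.01, IR-3W tumors from -0.64 to 0.65 with a median of -0.23, and spontaneous tumors from -0.04 to 2.42. The glands were lower than most tumors, at -1.001, -0.75 and -0.41. IR-7W minus IR-3W was 1.99 ± 0.31 (SE, limma adjusted p = 0.109). The difference was not shared by the whole run, since A_45_P08186583, which overlaps it in sequence, differed by -0.19 (adjusted p = 0.915) and A_45_P22949345 by 0.91 (adjusted p = 0.332). The difference at A_45_P22949341 passed the adjusted threshold without IR-7W tumor 5 (adjusted p = 0.0445) and without IR-7W tumor 7 (adjusted p = 0.0398), and also after quantile normalization (0.0464), scaling by array SD (0.0269) and as LogOdds (0.0400). IR-7W tumor 5 had the lowest IR-7W value at this probe, so leaving it out widens the difference. Under the other alternatives run the probe was not called, nor were A_45_P08822801 and A_45_P10149100 beyond the passes given above. With normexp, the methods' t-test, or the slide, scan day or replicate as a block, 0 of all probes were called between IR-7W and IR-3W.

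**Figure D5:**
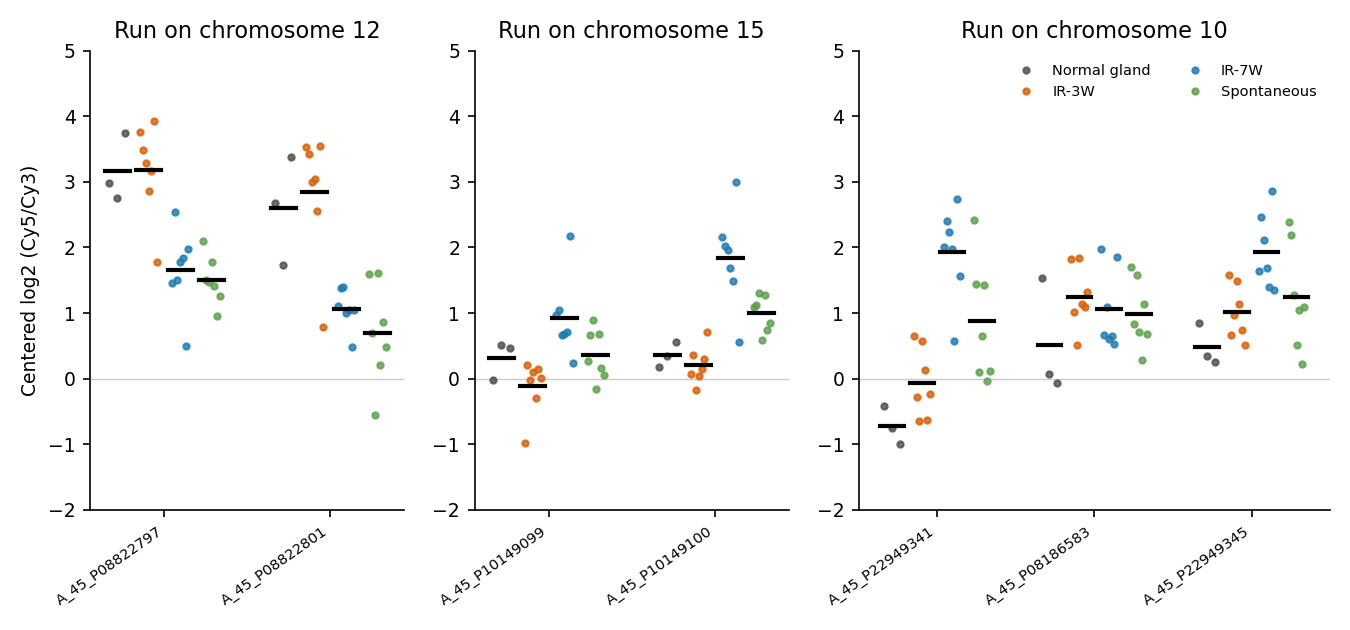
Centered log2 ratios (y axis) of every probe (x axis) of 3 short runs, with 1 point per array and bars for group means. On chromosome 12, 6 of 7 IR-3W tumors lay with the glands above the other tumors, and on chromosome 15, 6 of 7 IR-7W tumors lay above the other groups at the second probe.

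Against the spontaneous tumors, IR-3W had 0 short-run probes called by limma, against 0.00860% of all probes, and 0 by the methods' t-test after adjustment. There were 673 at an unadjusted p under 0.05, against 10.2% of all probes, and 74 at an unadjusted p under 0.005, against 1.21%. Besides the probe on chromosome 12, A_45_P06853982 at chr8:92272028-92272072 was lower in IR-3W, at 0.95 ± 0.34 against 1.75 ± 0.23 in spontaneous tumors (SD, n = 7 each, limma adjusted p = 0.319). A_45_P10149100 had a difference of -0.79 (adjusted p = 0.319). At A_45_P01368352, chr2:27545888-27545936, the Cy5 signal was not well above background in any spontaneous tumor and only in 1 IR-3W tumor, and no fold is given.

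IR-7W had 0 short-run probes called against the spontaneous tumors, where 0% of all probes were called by limma, and 0 by the methods' t-test after adjustment. There were 271 at an unadjusted p under 0.05, against 3.93% of all probes, and 16 at an unadjusted p under 0.005, against 0.312%. At A_45_P08704285, chr12:13774483-13774527, IR-7W tumors were at 2.86 ± 0.58 and spontaneous tumors at 1.67 ± 0.51 (SD, n = 7 each, limma adjusted p = 0.912), and both other probes of its run differed in the same direction, by 1.05 and 0.44. At A_45_P03780779, chr4:105475862-105475912, IR-7W tumors were at 1.41 ± 0.66, spontaneous tumors at 0.25 ± 0.41 and IR-3W tumors at 0.21 ± 0.47. IR-7W minus spontaneous was 1.15 at this probe and 0.65 at its neighbour A_45_P03780781 (limma adjusted p = 0.912 for both). The neighbour was also higher in IR-7W than in IR-3W, by 0.83 (adjusted p = 0.253). A_45_P20363179 at chr6:110850342-110850389 and A_45_P01493265 at chr2:52125261-52125307 had lower values in IR-7W than in spontaneous tumors, with differences of -0.52 and -0.48 (adjusted p = 0.912 for both). The run mates of the former, A_45_P05521032 and A_45_P20363183, differed by -0.09 and 0.26. The run mate of the latter, A_45_P01493262, differed by -0.14. At A_45_P20363179 the Cy5 signal was well above background on only 3 of 7 IR-7W tumors, so its difference is partly a reading near background. At A_45_P19234609, chr5:40008237-40008288, which had the second smallest p among the probes lower in IR-7W than in IR-3W, the Cy5 signal was not well above background in any IR-7W tumor, and no fold is given.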

How the data were processed

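The authors deposited 1 Agilent scanner file per sample, made with Agilent Feature Extraction 10.7.3.1, in which the intensity values of both channels were background-subtracted, spatially detrended and scaled by a linear dye factor. The deposited flags mark outlier spots and signals well above background. The deposited series matrix holds log2 ratios and served as an alternative. Log2 ratios of processed signals were centered on each array's median, and outlier spots were left out. A mixture of 2 normal modes was fitted to each array for the high side and the rebuilt LogOdds. The study's own LogOdds values were not used here. The centering removes any shift shared by a whole array. Tests ran over all probes with limma 3.58.1 (R 4.3.3), with Benjamini-Hochberg adjustment, using only the arrays compared, and each p-value measures the spread between these samples. Descriptions were made in Python 3.11.15 (pandas 2.3.3, scipy 1.17.1, numpy 2.4.6). The members and lists were chosen with earlier results of these data known. The division into a high and a low side, the distance classes and the windows were chosen after the data had been seen. Named probes were the 6 largest differences in each direction among called probes with no overlap between tumors and glands, 1 per run, the 2 runs of 3 with the largest mean difference in each direction, and the 2 smallest p in each direction between tumor groups. Alternatives were other measures, normalizations, filters, blocks, joining distances and tests, and each array left out.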

Additional observations from a re-analysis of the deposited data

Results flagged for a closer look

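In each tumor group of 7, a tumor was set against the others when its gap to the nearest one was a large share of the group's range, over 119 combinations of a measure and a group. A tumor stood apart in 7, and chance alone gives about 1 in 20. IR-3W tumor 1 had the highest upper end of log2 ratios, with a 95th percentile of 5.69 over the short-run probes against 3.34 to 3.77 in the other IR-3W tumors, and 5.83 over single probes against 3.39 to 3.99. In IR-3W tumor 2 short runs exceeded long runs on the high side by 3.15 percentage points, against 5.46 to 6.53 in the other IR-3W tumors. At A_45_P08822801 IR-3W tumor 7 was at 0.79, against 2.55 to 3.55 in the others, and IR-7W tumor 6 was at 0.48, against 1.00 to 1.39. At A_45_P01378117 spontaneous tumor 6 was at 1.30, against -0.20 to 0.26 in the others. At A_45_P11161128 spontaneous tumor 5 was at -3.30, against -1.77 to -0.70.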

How the results depend on the processing

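For tumors against glands, the 1340 calls ranged from 596 to 1414 with each array left out, and were 1 with the slide and 56 with the scan day as a block, 2030 of 8912 probes (22.8%) with runs joined at 500 bp and 560 of 2533 when runs were counted. The median difference was -0.016 with normexp, -0.0016 after quantile normalization, 1.41 as LogOdds, -0.044 with the scan day as a block and -0.0032 to 0.135 with arrays left out. The share of calls that were higher was 40.7% with normexp, 37.8% after quantile normalization, 49.2% scaled by array SD, 96.8% as LogOdds, 42.8% with a Cy3 filter, 100% of 1 call with the slide, 39.3% with the scan day and 30.1% to 47.2% with arrays left out. For IR-7W against IR-3W, calls were 1 after quantile normalization (0.0140% of all probes), 9 scaled by array SD (0.138%), 11 as LogOdds (0.217%), 1 with 1 tumor per rat (0.00107%) and 0 to 7 with arrays left out. Counts at an unadjusted p under 0.005 were 27 with normexp, 107 after quantile normalization, 118 scaled, 152 as LogOdds, 22 with the slide, 111 at 500 bp, 38 for runs and 47 to 103 with arrays left out. For IR-3W against spontaneous tumors, calls were 2 after quantile normalization (0.0408% of all probes), 4 with the scan day (0.0785%), 2 with 1 tumor per rat (0.00430%) and 0 to 2 with arrays left out, and for IR-7W against spontaneous tumors they were 0 under all alternatives run. Short minus long runs in median was 0.042 with normexp, 0.068 at 500 bp and 0.128 to 0.134 with arrays left out. Of the alternatives chosen after seeing the data, the surplus of 5.14 percentage points on the high side in tumors was 3.97 with 1 common dividing value, -0.30 with that value after quantile normalization, which makes the shares nearly equal by construction, and 4.17 to 6.11 with arrays left out, and short minus long runs was 2.00 at 500 bp and 5.08 to 5.25. The cause of the other changes was not tested. None of the 34 results for named probes changed direction under any alternative run. Over all pairs of a result and an alternative, significance was lost in 65 and gained in 13, and 22 losses each came with the slide and the scan day as a block, which is every named probe of tumors against glands.

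The replicate numbers do not pair the samples, since deviations of samples with the same number correlated at -0.27 to 0.50 with a median of 0.02. With the replicate block there were 1209 calls for tumors against glands and 56 at an unadjusted p under 0.005 for IR-7W against IR-3W, and 0 calls between tumor groups. Of the named probes, A_45_P20570274 was not called with it (limma adjusted p = 0.0510). Weak Cy5 signals limit the lowest log2 ratios, which are readings near background.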
